A study of Mus musculus with 5480 samples.

Results

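A named list of 10 genes of lipid handling, used to describe lipofibroblasts, was followed across the mesenchymal cells of the neonatal mouse lung: Pparg, Pth1r, Plin2, Dgat2, Pnpla2, Lpl, Angptl4, Cd36, Fabp4 and Fabp5. All 10 were among the 18072 genes of the count table. The table held 5480 single cells of distal lung from 10 mice, sorted by flow cytometry and read with a plate-based Tn5 protocol. Each of 5 groups had 1 female and 1 male mouse: embryonic day 18.5 (E18.5), postnatal days 1, 7 and 21 (P1, P7, P21) in normal air, and P7 after hyperoxia, which is breathing of air enriched in oxygen. No genotype, strain or transgene was given for any group in the sources used here. The 16 cell subtypes are those named by the submitters, who clustered the same cells, so levels between subtypes are described with no test.

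Lipofibroblasts are lung interstitial fibroblasts that hold droplets of neutral lipid and lie next to alveolar type II cells, to which they are thought to pass lipid for surfactant. In the classical account, parathyroid hormone-related protein from the epithelium acts on its receptor Pth1r and raises the nuclear receptor Pparg, which in turn drives droplet and fatty acid genes. The droplet is coated by Plin2, filled by the last step of triglyceride synthesis (Dgat2) and emptied by the lipase Pnpla2. Lpl splits circulating triglyceride and is held back by Angptl4, Cd36 brings fatty acids across the membrane, and Fabp4 and Fabp5 carry them in the cytosol.

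Promoters of 5 of the 10 genes were found in the RefSeq table of build GRCm38.p6. The 250 bases before the start site of 2 of them, both known targets of Pparg, are shown. Each of these 2 had 1 window and a match to the letters named next, so they do not stand for all 5 genes. Capitals mark AGGTCA, the core letters bound by many nuclear receptors, or its reverse complement, searched on both strands.
Plin2, chr4:86670060-86670309, minus strand: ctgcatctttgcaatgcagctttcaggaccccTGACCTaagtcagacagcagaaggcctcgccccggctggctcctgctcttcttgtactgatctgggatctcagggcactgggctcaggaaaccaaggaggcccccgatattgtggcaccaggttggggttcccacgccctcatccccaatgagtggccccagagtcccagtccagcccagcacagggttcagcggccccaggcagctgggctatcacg
Cd36, chr5:17835897-17836146, minus strand: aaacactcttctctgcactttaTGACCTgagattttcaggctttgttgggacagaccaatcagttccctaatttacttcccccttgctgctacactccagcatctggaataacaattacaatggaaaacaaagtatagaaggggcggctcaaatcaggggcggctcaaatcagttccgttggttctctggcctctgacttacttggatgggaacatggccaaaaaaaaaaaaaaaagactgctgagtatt
These letters stood in 4 of the 9 promoter windows listed for the 5 genes, against 14% of all 32851 windows of this length. Of the 3 windows of Pparg 2 held them, as did those of Plin2 and Cd36. The 3 windows of Pth1r and the 1 of Pnpla2 did not. The direct repeat of these letters with 1 base between, known as DR1, was in none of the 9, and in 0.0335% of all windows. A match of letters describes the window only.

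Depth ranged from 39358 to 5177020 reads per cell with a median of 774305, and from 294154721 to 671766116 reads per mouse. Levels are CPM, counts scaled to the size of each library, of the reads summed over the cells of a mouse and subtype, where at least 10 cells were present, and are given as female then male mouse. Changes were tested with edgeR's quasi-likelihood test on these sums, adjusted over all genes by Benjamini-Hochberg, with a threshold of 0.05. Each hyperoxia mouse was almost wholly on sequencing runs of its own, so run and hyperoxia cannot be told apart. In the females run also changed with age: E18.5 and P1 were mostly on 1 run, and P7 and P21 in normal air each on another. Run and age therefore cannot be told apart in the females from P1 to P7 and from P7 to P21. The normal-air males were mostly on 1 run. The p-values rest on the spread between the 2 mice of a group, pooled over all groups in the fit and in part across genes. In the sums, fewer cells with a transcript and less of it per cell cannot be told apart.

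**Figure D1:**
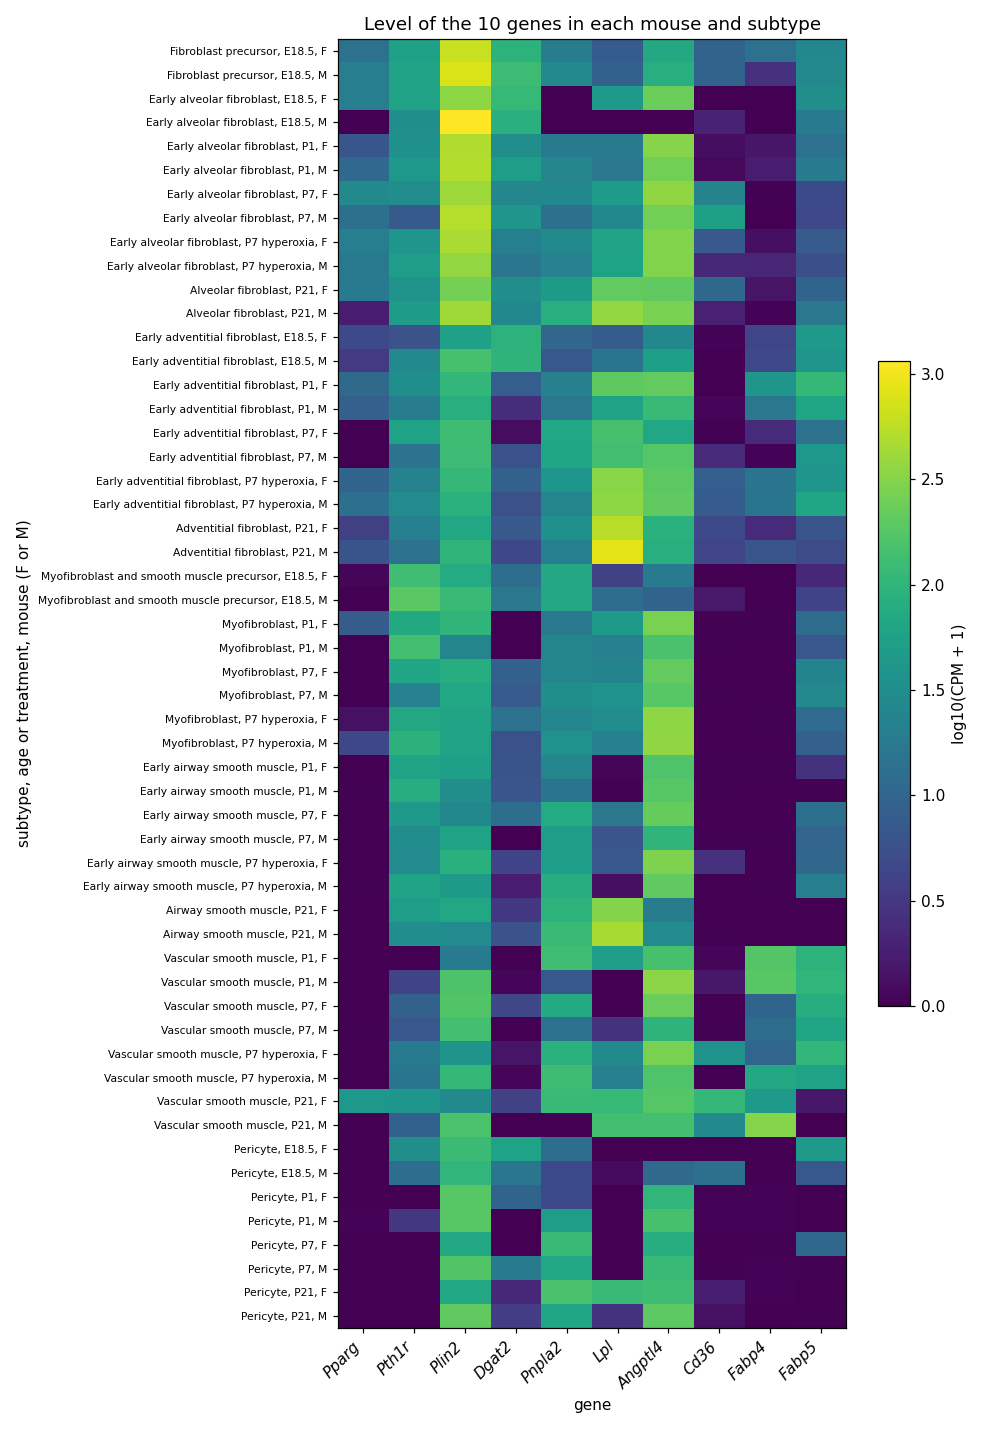
Level of each of the 10 genes (columns) in each mouse of 11 subtypes (rows, with age or treatment and F or M for the sex of the mouse), as log10(CPM + 1) by colour. Plin2 is brightest in fibroblast precursors and alveolar fibroblasts, Lpl in adventitial fibroblasts at P21, and Pparg, Cd36 and Fabp4 are dark in most rows.

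Among the regulators, Pparg was scarce. In fibroblast precursors it measured 13.2 and 19.3 CPM, in early alveolar fibroblasts 5.64 and 10.0 CPM at P1 and 28.5 and 12.4 CPM at P7, and in alveolar fibroblasts 17.2 and 0.771 CPM at P21. It was at or near 0 in airway smooth muscle and pericytes at every age measured. Of the precursors, 35 of 425 cells of the female and 36 of 335 of the male had a Pparg read, and 32 and 35 of these also had a Plin2 read. The share of all precursors with a Plin2 read is not set beside these counts. They therefore do not show that both genes mark the same cells. The highest mean stood in vascular smooth muscle at P21, 42.3 and 0 CPM, where 1 female cell gave 99.8% of the reads.

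Pth1r, the receptor of the classical pathway, was not highest in the lipid-rich fibroblasts. Precursors of myofibroblasts and smooth muscle held 132 and 190 CPM at E18.5, against 55.1 and 59.9 CPM in fibroblast precursors of the same mice, and the mice of the groups did not overlap. Myofibroblasts at P1 measured 71.5 and 136 CPM, early airway smooth muscle 60.0 and 79.9 CPM, and early alveolar fibroblasts 33.7 and 42.2 CPM. At P21 alveolar fibroblasts (34.9 and 48.6 CPM) and airway smooth muscle (50.0 and 31.0 CPM) overlapped. Pericytes had no Pth1r read at P7 and P21, where 3 reads would be 0.0579 to 0.151 CPM (counting error only).

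Plin2, the droplet coat protein, was highest in fibroblast precursors and alveolar fibroblasts. Fibroblast precursors measured 635.5 and 774.8 CPM, early alveolar fibroblasts 495 and 505 CPM at P1 and 408 and 519.7 CPM at P7, and alveolar fibroblasts 261 and 418 CPM at P21. Proliferating fibroblasts at E18.5, with 880.9 and 404.8 CPM, overlapped with the precursors. At P1, P7 in normal air and P21 the next subtype had a mean of 185, 155 and 137 CPM, and its mice did not overlap with the alveolar fibroblasts. Adventitial fibroblasts did not stand apart in this way, with a mean of 94.9 CPM at P1 and 83.4 CPM at P21. Per kilobase of exon, Plin2 in precursors stood at 201 ± 28.1 CPM (SD, n = 2) and Dgat2 at 35.4 ± 6.77. Single cells did not carry this level: the top cell gave 2.57% and 3.09% of the Plin2 reads of the precursors.

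Dgat2, which makes triglyceride, had its highest mean among subtypes measured in both mice in the same precursors, 94.4 and 124 CPM. Proliferating fibroblasts of that age overlapped with them at 90.5 and 123.5 CPM. Early adventitial fibroblasts at E18.5 were close, at 93.8 and 96.1 CPM. After birth Dgat2 measured 31.2 and 51.7 CPM in early alveolar fibroblasts at P1 and 31.8 and 25.8 CPM in alveolar fibroblasts at P21. The next subtype measured in both mice at each of these ages had a mean of 5.28 and 4.86 CPM.

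Pnpla2, the lipase that opens the droplet, was highest on average in pericytes at P7 and P21 in normal air, among subtypes measured in both mice. The top mean of any group was 109.5 CPM, in vascular smooth muscle at P7 in hyperoxia, where pericytes were too few to measure. At E18.5 precursors of myofibroblasts and smooth muscle led with a mean of 69.2 CPM. At P1 vascular smooth muscle led with 69.5 CPM and overlapped with pericytes. Pericytes at P7 held 115.5 and 66.8 CPM and at P21 149.8 and 63.8 CPM, and airway smooth muscle at P21 held 95.4 and 118 CPM. Fibroblast precursors measured 18.6 and 26.5 CPM and early alveolar fibroblasts at P7 25.6 and 12.6 CPM. Alveolar fibroblasts at P21 measured 46.1 and 81.6 CPM and overlapped with pericytes of that age. Pericytes at E18.5, with 11.3 and 3.86 CPM, lay below the fibroblast precursors.

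From fibroblast precursors at E18.5 to early alveolar fibroblasts at P1, no member passed the threshold, where 0.125% of 16022 genes did. Unadjusted p-values under 0.05, which 5.89% of all genes had, were found for 4 of the 10. Angptl4, the inhibitor of Lpl, measured 69.1 and 83.6 CPM before birth and 315 and 256 CPM after, a log2 difference of 1.89 ± 0.32 (SE; edgeR adjusted p = 0.078). Lpl measured 6.73 and 7.90 CPM and then 17.1 and 15.9 CPM (log2 difference 1.17 ± 0.40, edgeR adjusted p = 0.635). Dgat2 had a log2 difference of -1.42 ± 0.43 (edgeR adjusted p = 0.497). Cd36 measured 8.51 and 8.76 CPM and then 0.292 and 0.175 CPM (log2 difference -5.35 ± 1.29, edgeR adjusted p = 0.293). None of these 4 had overlapping mice. With only the mice of both groups in the fit, Angptl4, Cd36 and Dgat2 passed.

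**Figure D2:**
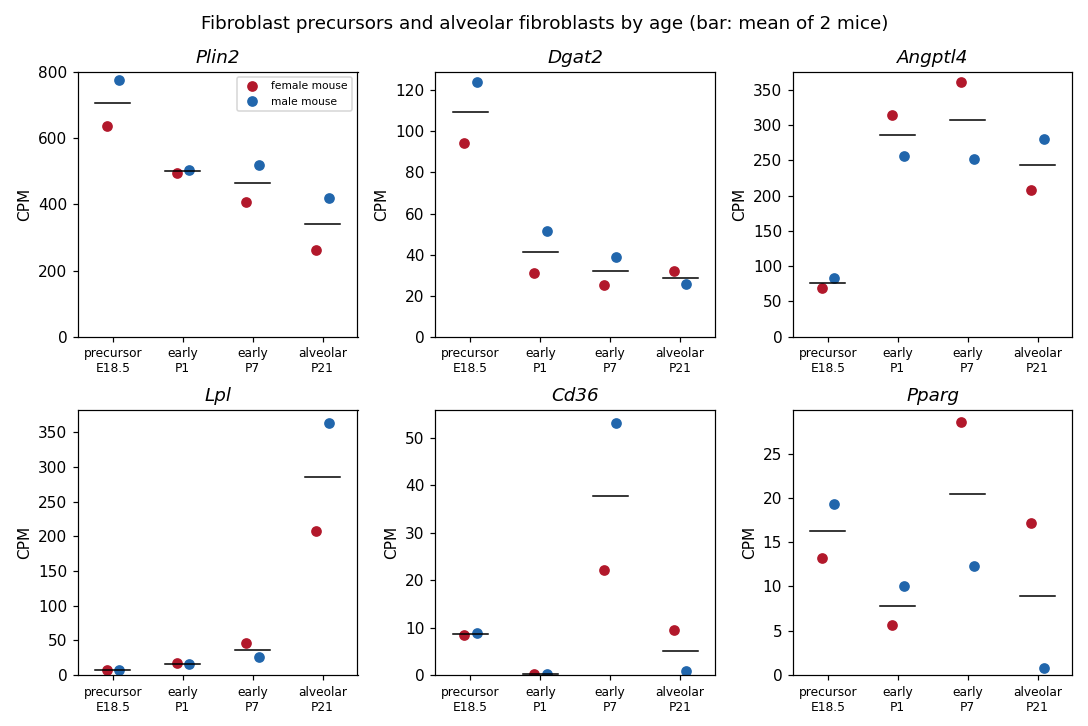
CPM of 6 genes in fibroblast precursors (E18.5), early alveolar fibroblasts (P1, P7 normal air) and alveolar fibroblasts (P21). Points are single mice and bars the mean of 2. Dgat2 is highest at E18.5, Angptl4 is higher from P1 on, and Lpl is highest at P21 with 208 and 364 CPM.

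Within alveolar fibroblasts, taken as early and mature cells together, 1 member passed from E18.5 to P1. Pnpla2 had no read in either mouse at E18.5 and 16.8 and 23.5 CPM at P1, so it rose at least 101.7-fold against a floor of 3 reads over the group (edgeR adjusted p = 0.0304). In that comparison 6.16% of 15670 genes passed, 6.1% upward (956 of 966 calls), and 21% had an unadjusted p under 0.05, as 1 of 10 members did. The median log2 change of all genes was 1.36 against -0.14 for the members. The E18.5 libraries held only 14 and 24 cells with a median of 1042 and 1232 genes per cell, against 3792 and 3953 in the precursors of the same mice. The female library carried 871 CPM of epithelial and 434 CPM of immune markers, and their part in the result was not tested. The call was lost without any 1 mouse of P1, P7 or P21, with adjusted p between 0.0578 and 0.157 by edgeR's test. It was also lost with only the mice of both groups in the fit (0.572 by the same test).

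From P1 to P7 none of 10 members passed in alveolar fibroblasts, nor did any gene (0%), and 1 had an unadjusted p under 0.05, as 2.36% of genes did. That member, Cd36, measured 0.292 and 0.175 CPM at P1 and 22.2 and 53.2 CPM at P7, a log2 difference of 7.53 ± 2.22 (edgeR adjusted p = 1.0). At P21 it measured 9.41 and 0.903 CPM. From P7 to P21 no member passed, where 0.0702% of genes did, and none had an unadjusted p under 0.05, where 7.13% of genes did. Lpl went from 46.6 and 26.0 CPM to 208 and 364 CPM without overlap. Apoe, a lipoprotein component, rose by 2.90 ± 0.30 on the log2 scale (edgeR adjusted p = 0.0368).

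Adventitial fibroblasts, which sheathe the larger vessels and airways, had the highest mean Lpl at P1, P7 and P21 among subtypes measured in both mice. They measured 6.97 and 14.6 CPM at E18.5, 198 and 57.3 CPM at P1, 149 and 136 CPM at P7 and 536 and 856 CPM at P21. At E18.5 early alveolar fibroblasts had the higher mean, 21.2 against 10.8 CPM. The P21 values did not overlap with airway smooth muscle, the next subtype at that age. No member passed in any step, where 0.17%, 0% and 0.124% of 15289 genes did from E18.5 to P1, P1 to P7 and P7 to P21. Unadjusted p-values under 0.05 were found for 3, 4 and 4 of 10 members in these steps, and for 9.23%, 5.6% and 10.2% of all genes. The log2 difference of Lpl was 3.55 ± 0.63 (edgeR adjusted p = 0.0866) in the first step and 2.29 ± 0.58 (edgeR adjusted p = 0.218) in the last. Dgat2 measured 93.8 and 96.1 CPM at E18.5 and 7.17 and 1.55 CPM at P1 (log2 difference -4.53 ± 1.38, edgeR adjusted p = 0.358). Angptl4 measured 25.5 and 51.8 CPM and then 213 and 116 CPM (log2 difference 2.17 ± 0.55, edgeR adjusted p = 0.243).

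The binding proteins are given here side by side. Fabp5 in adventitial fibroblasts measured 109 and 63.9 CPM at P1, 13.2 and 41.7 CPM at P7 and 5.49 and 4.14 CPM at P21. In alveolar fibroblasts at P21 it measured 8.82 and 15.8 CPM, above the adventitial fibroblasts without overlap. Fabp4 in adventitial fibroblasts measured 38.8 and 15.3 CPM at P1 and 1.34 and 0.0709 CPM at P7. Pparg there had 1467 reads over both mice at P1, 2 at P7 and 783 at P21, and no fold is given for so few reads. Pnpla2 measured 20.4 and 15.9 CPM at P1, 66.6 and 63.5 CPM at P7 and 33.5 and 20.2 CPM at P21. From P1 to P7 the log2 differences were -1.71 ± 0.71 for Fabp5, -5.43 ± 1.72 for Fabp4 and 1.84 ± 0.62 for Pnpla2, and from P7 to P21 -2.17 ± 0.73 for Fabp5 and -1.35 ± 0.61 for Pnpla2. The edgeR adjusted p was 0.829 for each in the first of these steps and 0.392 and 0.491 in the second. In the male at P1, 1 cell gave 87.8% of the Pparg reads and 80.6% of those of Fabp4.

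**Figure D3:**
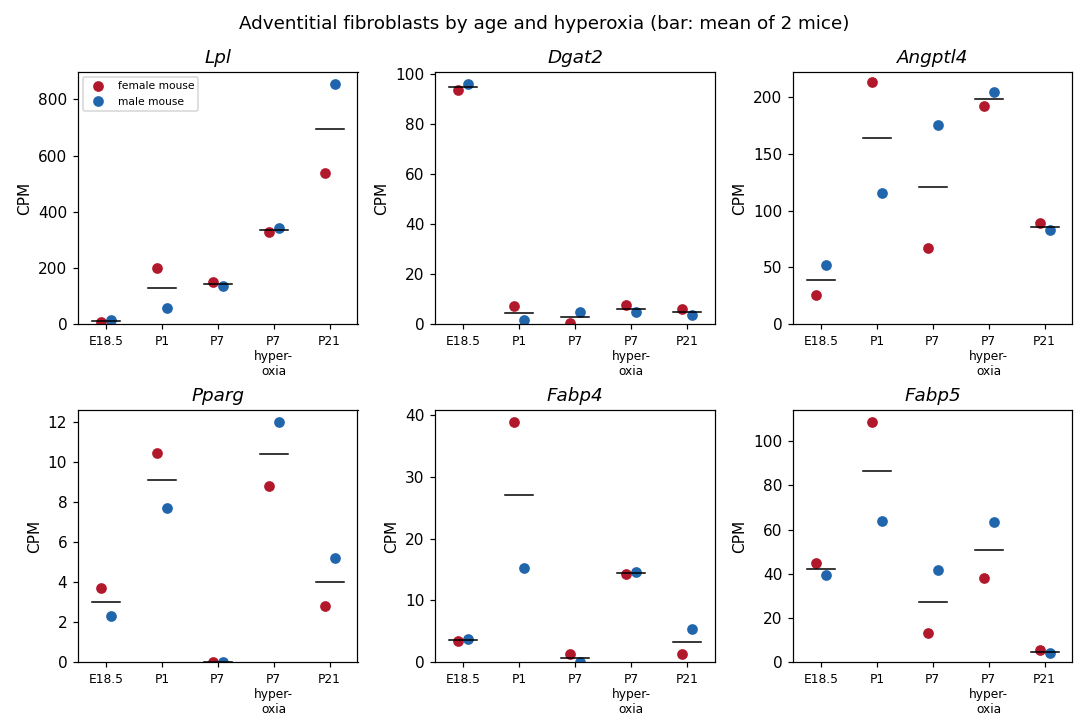
CPM of 6 genes in adventitial fibroblasts at E18.5, P1, P7 in normal air, P7 after hyperoxia and P21. Points are single mice and bars the mean of 2. Lpl is highest at P21, Dgat2 at E18.5, and the hyperoxia mice lie above both normal-air mice of P7 for Lpl, Angptl4, Pparg and Fabp4.

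In airway smooth muscle, the contractile sleeve of the airways, 2 of the 7 members tested passed from P7 to P21, where 1.13% of 13496 genes did, 0.734% upward and 0.393% downward. Unadjusted p-values under 0.05 were found for 3 of 7, against 10.5% of genes, and from P1 to P7 for 2 of 7, against 5.25%, while no gene passed in that step (0%). Lpl measured 0.107 and 0.0375 CPM at P1, 15.6 and 5.48 CPM at P7 and 310 and 462 CPM at P21. The last step was a rise of 5.60 ± 1.01 on the log2 scale (edgeR adjusted p = 0.0381), with no overlap between mice. Angptl4 measured 165 and 183 CPM at P1, 219 and 100.3 CPM at P7 and 18.3 and 28.8 CPM at P21, and fell by 2.78 ± 0.51 on the log2 scale (edgeR adjusted p = 0.0397). Other markers moved in the same libraries. Adventitial fibroblast markers summed to 528 and 530 CPM at P7 and 2237 and 3316 CPM at P21. Of these 6 markers, 2 were higher in both mice (Dcn and Dpt) and 2 were lower (Serpinf1, and Pi16 with no read at P21). Col14a1 overlapped, and Ly6a had no read at either age. Vascular smooth muscle markers summed to 11270 and 13880 CPM and then 4811 and 8307 CPM. Of these, 3 of 4, Acta2 among them, were lower in both mice, and Mustn1 was higher in both. The airway smooth muscle markers themselves summed to 2487 and 3941 CPM and then 6717 and 7376 CPM. Myh11, which is on this list and on the vascular one, went the other way, from 854 and 1016 CPM to 247 and 146 CPM. The other airway markers were not compared mouse by mouse. The part of all these markers in the changes of Lpl and Angptl4 was not tested. From P1 to P7 the log2 differences were 7.07 ± 1.21 for Lpl (edgeR adjusted p = 0.242) and 1.65 ± 0.60 for Pnpla2 (edgeR adjusted p = 0.919), which measured 24.2 and 13.9 CPM and then 74.7 and 49.9 CPM. Fabp5 measured 12.5 and 8.99 CPM at P7 and had no read at P21, at least 295-fold lower, with an edgeR adjusted p of 0.245. The Lpl call was lost without the female of P1, either normal-air mouse of P7 or the male of P21, with log2 changes of 3.68 to 6.71 over all mice left out in turn and edgeR adjusted p up to 0.25. The Angptl4 call was lost without either mouse of P1, of P7 in normal air or of P7 hyperoxia, or the female of P21, with log2 changes of -3.35 to -2.18 and edgeR adjusted p up to 0.273.

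Of the 70 other lipid genes tested in that step, 3 rose and none fell: Apoe by 3.71 ± 0.35, and the adipogenic transcription factors Cebpb by 4.95 ± 0.63 and Cebpd by 4.04 ± 0.51 on the log2 scale. Their edgeR adjusted p-values were 0.00306, 0.00989 and 0.00965. The part of the adventitial markers was not tested. Their sum was higher in the same P21 libraries, with 2 of 6 higher and 2 lower in both mice. In the same step Apoe also rose in adventitial fibroblasts, by 2.21 ± 0.33 on the log2 scale (edgeR adjusted p = 0.0469), and in alveolar fibroblasts, as given above. The median log2 change of the 70 was 0.52, against -0.09 for all genes.

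**Figure D4:**
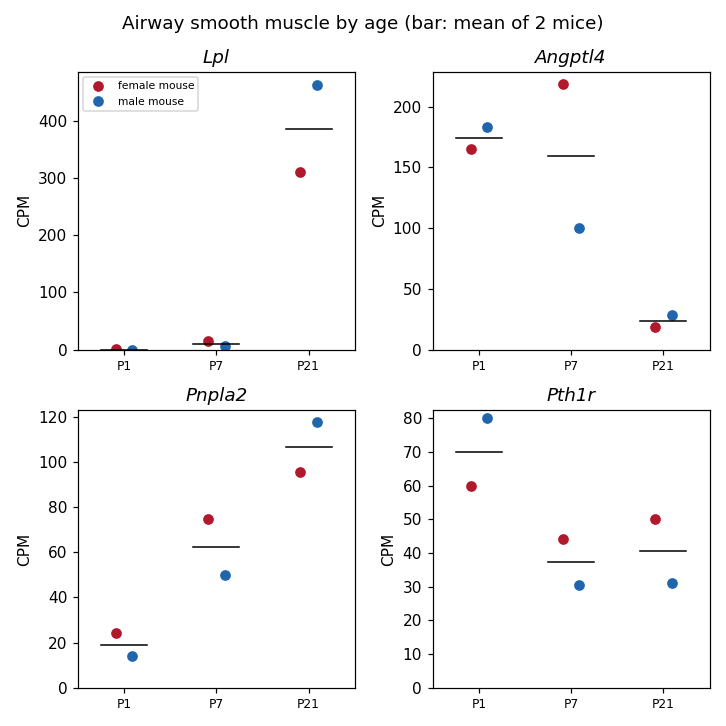
CPM of 4 genes in early airway smooth muscle (P1, P7 normal air) and airway smooth muscle (P21). Points are single mice and bars the mean of 2. Lpl lies at 310 and 462 CPM at P21 and at 15.6 CPM or less before, while Angptl4 is lowest at P21.

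Vascular smooth muscle had the highest mean Fabp4 at P1, P7 and P21 and the highest mean Fabp5 at P1 and P7 among subtypes measured in both mice, where early adventitial fibroblasts overlapped with it for Fabp5 at P1. Fabp4 measured 172 and 182 CPM at P1, 8.79 and 11.1 CPM at P7 and 44.9 and 322 CPM at P21, with log2 differences of -4.20 ± 1.06 (edgeR adjusted p = 0.991) and 3.65 ± 1.06 (edgeR adjusted p = 0.498). Fabp5 measured 93.3 and 102 CPM at P1, 79.2 and 61.7 CPM at P7 and 0.564 and 0 CPM at P21 (log2 difference of the last step -8.31 ± 1.70, edgeR adjusted p = 0.184). No member passed, where 0% and 0.0886% of 12417 genes did in these steps. Unadjusted p-values under 0.05 were found for 1 and 4 of 9 members, against 3.73% and 7.21% of genes. Lpl was among them from P7 to P21, with 0 and 1.79 CPM and then 112 and 135 CPM (log2 difference 7.06 ± 2.95, edgeR adjusted p = 0.687). The libraries held 15 to 33 cells, and at P21 single cells gave 90.8% and 95.1% of the Fabp4 reads and 72.9% and 100% of the Cd36 reads. Fabp4 is also an endothelial gene: of the 41 vascular smooth muscle cells with at least 10 Fabp4 reads, 4 had 10 reads of Pecam1, Cdh5 or Kdr.

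In pericytes, the mural cells of capillaries, no member passed, where 0.042%, 0% and 0.0504% of 11894 genes did from E18.5 to P1, P1 to P7 and P7 to P21. Unadjusted p-values under 0.05 were found for 2, 0 and 1 of 8 members, against 5.4%, 3.99% and 4.66% of genes. Angptl4 measured 0 and 10.5 CPM at E18.5 and 104 and 148 CPM at P1 (log2 difference 5.40 ± 1.70, edgeR adjusted p = 0.667). Fabp5 measured 44.6 and 6.06 CPM at E18.5 and had no read at P1. Lpl was without a read at P1 and P7 and measured 115 and 1.83 CPM at P21. Lipg, an endothelial-type lipase, rose from E18.5 to P1 and again from P7 to P21, by 6.01 ± 0.80 and 5.10 ± 0.76 on the log2 scale (edgeR adjusted p = 0.0209 and 0.0423). Between these, from P1 to P7, its log2 difference was -4.11 ± 0.73 (edgeR adjusted p = 0.411). In myofibroblasts no gene passed from P1 to P7 (0% of 13380), 1 of 8 members had an unadjusted p under 0.05, as 8.01% of genes did, and that member, Dgat2, went from no read to 7.60 and 6.65 CPM.

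At P7, no member passed between hyperoxia and normal air in any of 5 classes, and no gene did (0% in each). At an unadjusted p under 0.05, counts of members were 3 of 10 in adventitial fibroblasts (8.01% of all genes), 1 of 8 in myofibroblasts (6.33%), 1 of 7 in airway smooth muscle (3.1%), 0 of 10 in alveolar fibroblasts (2.68%) and 0 of 9 in vascular smooth muscle (2.57%). DESeq2 on the same sums called 3 member and class pairs. Plin2 in early alveolar fibroblasts measured 408 and 519.7 CPM in normal air and 464.5 and 370 CPM in hyperoxia. Angptl4 measured 360.5 and 252 CPM and then 301 and 304 CPM. Both overlapped, as did Pparg and Pnpla2. The other members did not: Lpl, Pth1r, Fabp4 and Fabp5 were higher in both hyperoxia mice, and Cd36 and Dgat2 were lower. The share of all genes without such overlap was not counted, so this is no result about the members. Fabp4 was near 0 throughout, with 0.0509 and 0.00719 CPM and then 0.326 and 1.12 CPM. Lpl measured 46.6 and 26.0 CPM and then 60.5 and 59.1 CPM. Cd36 measured 22.2 and 53.2 CPM and then 6.18 and 1.26 CPM. Dgat2 measured 25.0 and 38.9 CPM and then 20.2 and 14.7 CPM.

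In adventitial fibroblasts, Lpl, Fabp4 and Pparg had an unadjusted p under 0.05, and their mice did not overlap between treatments. Neither did those of Angptl4 (66.7 and 175.9 CPM, then 192.5 and 204.6 CPM) and Cd36 (0.0367 and 1.37 CPM, then 7.32 and 6.77 CPM). Pnpla2 was lower in hyperoxia, with means of 65.0 and then 31.9 CPM. The share of all genes without such overlap was not counted. Lpl measured 149 and 136 CPM in normal air and 327 and 342 CPM in hyperoxia (log2 difference 1.26 ± 0.56, edgeR adjusted p = 0.621). Fabp4 measured 1.34 and 0.0709 CPM and then 14.3 and 14.5 CPM (log2 difference 4.63 ± 1.68, edgeR adjusted p = 0.621). Pparg had 2 reads over both normal-air mice and 8.78 and 12.0 CPM in hyperoxia (edgeR adjusted p = 0.431). Mesothelial markers in the same libraries summed to 231 and 0.0709 CPM in normal air and 538 and 636 CPM in hyperoxia, with 3 of 4 higher in both mice. Endothelial markers summed to 2.99 and 6.21 CPM and then 41.0 and 121 CPM, with 8 of 8 higher in both mice. The median number of genes per cell was 3027 and 3018 and then 4529 and 5910. The part of these in the differences was not tested. Over all groups, 3 of the 40 early adventitial cells with at least 10 Fabp4 reads had 10 reads of Pecam1, Cdh5 or Kdr. In myofibroblasts Angptl4 measured 213 and 184 CPM and then 346 and 357 CPM (log2 difference 0.93 ± 0.34, edgeR adjusted p = 0.76). In airway smooth muscle Lpl measured 15.6 and 5.48 CPM and then 5.74 and 0.323 CPM, with overlapping mice (log2 difference -2.10 ± 0.89, edgeR adjusted p = 1.0).

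The hyperoxia change in adventitial minus that in alveolar fibroblasts was tested with the mouse as a block. No member passed among 15587 genes (0%). Pparg, Cd36 and Pth1r had an unadjusted p under 0.05, as 6.83% of genes did. Their edgeR adjusted p-values were 0.547, 0.712 and 0.729, and DESeq2 called all 3. Cd36 and Pth1r differed by 8.32 ± 1.88 and -1.78 ± 0.52 on the log2 scale. No size is given for Pparg, which had almost no reads in normal-air adventitial fibroblasts. Cd36 was lower in hyperoxia in early alveolar fibroblasts and higher in early adventitial fibroblasts, each without overlap. Of the 11 early adventitial cells of any group with at least 10 Cd36 reads, 6 had 10 reads of Pecam1, Cdh5 or Kdr, and the part of the endothelial and mesothelial markers in this difference was not tested.

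While the level of Plin2 and Angptl4 in early alveolar fibroblasts overlapped between treatments, the share of cells with a read did not. After thinning each cell to 100000 reads, Plin2 was read in 59.5% and 64.5% of cells in normal air and 89.5% and 86.7% in hyperoxia. For Angptl4 the shares were 57.6% and 48.6%, and 79.9% and 87.6%. The mean number of the 10 genes read per thinned cell was 1.90 and 1.73 in normal air and 2.84 and 3.07 in hyperoxia. The median number of genes per cell moved the same way, from 2782 and 2628 to 4028 and 5167, and its part in these shares was not tested.

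**Figure D5:**
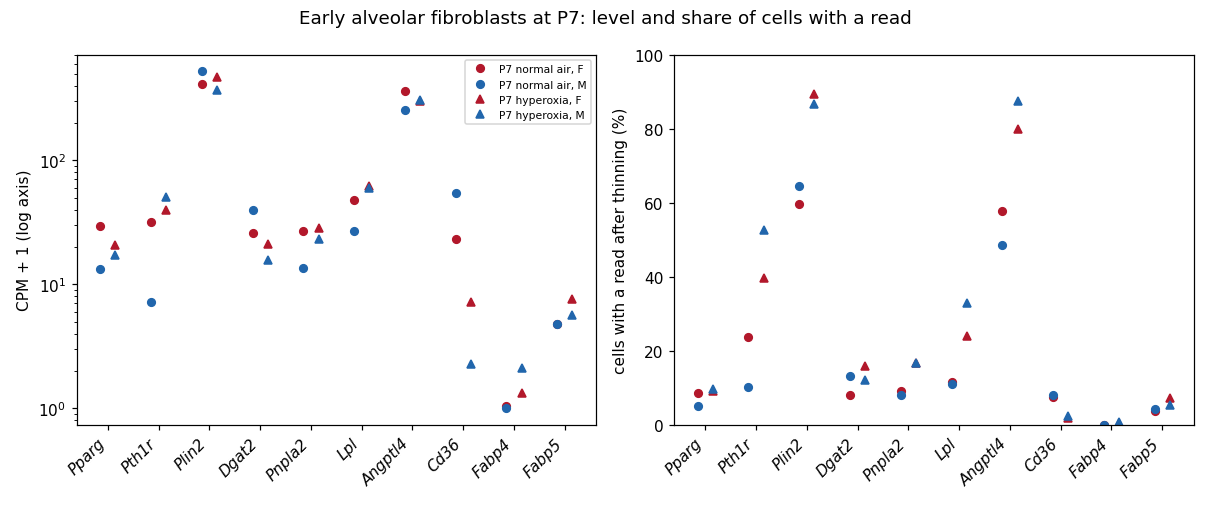
Early alveolar fibroblasts at P7: CPM + 1 on a log axis (left) and percent of cells with a read after thinning to 100000 reads (right) for each gene, with circles for normal air, triangles for hyperoxia and colour for the sex of the mouse. Plin2 and Angptl4 overlap in level and are separate in share, where both hyperoxia mice lie above 79%.

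A single cell stood apart. Among 17 proliferating fibroblasts of the female P7 mouse in normal air, 1 cell held 4284 CPM of Fabp4, 6622 of Lpl, 1835 of Plin2, 1147 of the adipocyte coat protein Plin1, 931.9 of Pparg, 436 of Cd36 and 69.1 of Retn. The same cell had no read of the adipocyte markers Cidec and Cfd, nor of the members Dgat2, Pnpla2 and Pth1r. It gave 100% of the Fabp4 and Cd36 reads and 92.0% of the Pparg reads of that library. Adipocyte markers were otherwise low, at most 8.70 CPM in every other library.

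The genes closest to each member in pattern were sought among 11541 genes over 30 combinations of subtype and group, as Pearson's r of log2(mean CPM + 1). These are descriptions across combinations that share mice and runs. Plin2 was nearest to Gyg (0.938), a glycogen primer, then Slc47a1 (0.897) and Asz1 (0.88). Dgat2 was nearest to Col25a1 (0.813), Pparg to Meox2 (0.784), Pth1r to Palld (0.848), Pnpla2 to Clip1 (0.851), Lpl to Npas2 (0.743), Angptl4 to Tmem160 (0.754), Cd36 to Rapgef5 (0.718), Fabp4 to Tbx18 (0.882) and Fabp5 to Hhat (0.769). Among the members themselves, Plin2 and Dgat2 had r = 0.682 and Plin2 and Pparg r = 0.612.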

How the data were processed

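The deposited table holds raw read counts per gene and cell, made by the authors with STAR 2.5.2b and HTSeq 0.10 per the submitters' processing notes, which name GRCh38 as the build, a human assembly, so no coordinates of the counted genes are given. Each GEO sample is 1 cell and the mouse is the replicate. For each mouse and class with 10 cells or more, the counts of the cells were added up, early and mature cells of a kind together. edgeR 4.0.16 (R 4.3.3; TMM, filterByExpr, quasi-likelihood test, terms for group and sex, all groups in the fit) was run on the summed counts, with Benjamini-Hochberg adjustment over all genes. The functions were tested on simulated counts. Levels are CPM with TMM over 64 libraries of mouse and subtype, and exon lengths came from GENCODE. Alternatives used DESeq2 1.42.0 and limma 3.58.1. Shares of cells used cells thinned to 100000 reads, which left out 168 cells.

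All members are named. A fold change is given where the unadjusted p was under 0.05, except against groups with almost no reads, and a similar gene had to reach 20 CPM. Of 80 other lipid genes 78 were in the table. The members and lists were chosen with earlier results of these data known. Mice of 1 sex are different animals, so sex does not pair them. Female minus male differences correlated over 0.1 between 3 of 51 pairs of groups, with r from -0.14 to 0.18, and the normal-air males shared 1 run.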

Additional observations from a re-analysis of the deposited data

Results flagged for a closer look

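The values here are log2 ratios of mean CPM + 1 between the later and the earlier age, or hyperoxia and normal air, scaled within each class with early and mature cells together. Each pair of classes is listed because both mice of one group lay above both of the other in the first class and below them in the second. The difference between classes was not tested. Only classes reaching 20 CPM are listed, a floor taken from the search for similar genes and applied here after the values were seen. It left 10 pairs, against 33 without it. Such pairs were not counted for all genes, so their number is no result about the members. From P7 to P21, Angptl4 was 0.58 in pericytes and -2.79 in airway smooth muscle, and Cd36 was 6.04 in vascular smooth muscle and -2.69 in alveolar fibroblasts. In the same step Pnpla2 was 0.83 in airway smooth muscle and 1.66 in alveolar fibroblasts, against -1.27 in adventitial fibroblasts. From E18.5 to P1, Fabp5 was 1.00 in adventitial fibroblasts, against -0.71 in alveolar fibroblasts and -4.71 in pericytes. The alveolar mice are barely apart on this scale (17.8 against 17.6 CPM) and overlap on the scale of the report, with 31.9 and 17.1 CPM and then 12.9 and 18.0 CPM. From P1 to P7, Fabp5 was 1.33 in myofibroblasts, against -1.63 in adventitial fibroblasts and -0.43 in vascular smooth muscle, and Plin2 was 0.38 in adventitial fibroblasts and -0.64 in pericytes. In hyperoxia, Pnpla2 was 1.29 in vascular smooth muscle and -0.97 in adventitial fibroblasts.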

How the results depend on the processing

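Calls of members, counted as gene and step or class pairs past the threshold, numbered 2 in airway smooth muscle, 1 in alveolar fibroblasts and 0 in the other results. DESeq2 gave 10 in adventitial fibroblasts, 4 in airway smooth muscle, 3 in alveolar fibroblasts, 2 in myofibroblasts, 3 in pericytes, 5 in vascular smooth muscle, 2 in the precursor step, 3 for hyperoxia and 3 for the difference between classes. Without a filter on low counts there was 1 each in adventitial fibroblasts, pericytes and vascular smooth muscle. A single fit over all classes gave 1 in airway smooth muscle, 3 in pericytes and 1 in vascular smooth muscle. Means of per-cell CPM with limma gave 0 in airway smooth muscle and 1 in the precursor step. With only the mice compared there were 0 in airway smooth muscle and 3 in the precursor step, and the 1 call left in alveolar fibroblasts was Lpl from P7 to P21, not Pnpla2. At least 20 cells per mouse gave 5 in alveolar fibroblasts, and left pericytes from E18.5 to P1 and vascular smooth muscle from P1 to P7 with no fit. No paired analysis by animal was possible because each mouse belongs to 1 group. With no replicate block, that is no term for sex, there was 1 in adventitial fibroblasts, 1 in airway smooth muscle and 1 in the precursor step. Leaving out 1 mouse at a time gave 0 to 1 in adventitial fibroblasts, airway smooth muscle, myofibroblasts and pericytes, 0 to 5 in alveolar fibroblasts and 0 to 2 in the precursor step. Leaving out 1 mouse leaves its group with 1, which is assumed to vary like the other groups. The cause of these changes was not tested. None of the 645 values of the 36 member changes with an unadjusted p under 0.05 reversed in sign, 27 lost the threshold and 45 gained it. With 2 mice a group and 2 to 4 residual degrees of freedom fitted here, the calls depend on the estimate of spread.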

Other observations

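Striated muscle cells, 16 in the female P21 mouse alone, held 1120 CPM of Lpl, 346 CPM of Cd36 and 231 CPM of Dgat2, with 87.1% of the Cd36 reads in 1 cell. The 55 cells named as male hyperoxic fibroblasts came from 1 mouse and held 306 CPM of Plin2, 204 CPM of Angptl4 and 45.6 CPM of Lpl, below the 370, 304 and 59.1 CPM of the early alveolar fibroblasts of that mouse.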
